A study of Mus musculus with 45 samples.

Results

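Maturing red cells of the mouse fetal liver were compared here between their polysomes and their cytoplasm, in embryos that carried no Cre. The libraries were chosen by their labels as Ter119+ libraries without VavCre for which a pool of cells had given both fractions. This left 10 of the 45 libraries of the series, from 2 pools of Rpl5flox/+ cells and 3 pools of Rps19flox/+ cells. All embryos were at E15.5, had 1 floxed and 1 normal allele of the named ribosomal protein gene and came from VavCre mothers, and without the recombinase the floxed allele is left whole. Each pool mixed cells of several livers of 1 genotype in equal numbers, so a pool and not an embryo is the replicate. The Ter119+ cells were taken with magnetic beads from what the Kit beads had left. Homogenates had been treated with emetine at 25 µg/mL for 15 min, and the cleared lysates were separated by 2 h at 41000 rpm on gradients from 10 to 50% sucrose. Poly(A) RNA of the fractions was sequenced. Another cytoplasm library of Rpl5flox/+ cells has no polysome partner and was not used. For comparison with less mature cells, 12 libraries of 6 Cre-negative Kit+ pools were used.

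Polysomes are mRNAs that carry several ribosomes at once, and emetine holds ribosomes on the mRNA by blocking elongation. The weight of an mRNA on polysomes against the cytoplasm is commonly read as how fully it is loaded with ribosomes relative to other mRNAs. Late red cell precursors make globin above all, enclose it in a spectrin and band 3 membrane, and lose their nucleus, mitochondria and at last their ribosomes. The series' own text calls the cytoplasm fraction free cytoplasmic mRNA, while the labels call it cytoplasm. Every level below is a normalized count, that is reads divided by 1 size factor per library, and every difference is polysome minus cytoplasm on the deposited log2 scale, as a mean over 5 pools ± its standard error. The labels name no spike-in, so the values compare the makeup of the fractions and not the amount of mRNA in them. Values of a gene are given in the order Rpl5flox/+ pools 1 and 2, then Rps19flox/+ pools 1, 2 and 3.

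The polysome libraries held 4.59 to 39.8 M reads and the cytoplasm libraries 45 to 123.5 M. Summed normalized counts of 10 erythroid markers were 17160000 to 72840000 in polysomes and 16480000 to 33920000 in cytoplasm, against 142000 to 249500 in Kit+ cytoplasm. Summed counts of 7 Kit+ stem and progenitor markers were 304 to 511 in cytoplasm, against 4131 to 5411 in Kit+ cytoplasm. Depth differed with the fraction: of the genes tested, 316 to 2611 had no read in a polysome library and 53 to 138 had none in a cytoplasm library. Lars2, which encodes the mitochondrial leucyl-tRNA synthetase, took 4.47%, 0.166%, 5.71%, 3.22% and 17.3% of the polysome reads but 0.305 to 1.06% of the cytoplasm reads. Its normalized count differed by 2.93 ± 0.59 (limma, adjusted p = 0.00596) and was higher in 4 of the 5 pools, all but Rpl5flox/+ pool 2. Which RNA these reads come from was not tested, so the value is not read as ribosome loading of Lars2. Shares of reads below mostly leave Lars2 out.

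Globin, the most abundant message, took a larger share of the polysome reads than of the cytoplasm reads once Lars2 was set aside. Among the rest, most mRNAs of the ribosomal proteins and of the nuclear-encoded respiratory chain were higher on polysomes, and 12 of 13 mRNAs made inside mitochondria were lower. In each of these groups most members also passed after TMM rescaling and with voom. Messages for the red cell membrane, iron handling and erythroid transcription factors had many lower members on the deposited scale, but their medians lay within 0.16 of that of all genes. Of 10588 genes tested with the pool as a block, 2823 passed the test (26.7%), 509 of them higher on polysomes (4.81%) and 2314 lower (21.9%). The median difference of all tested genes was -0.66, and the pool medians were -0.31, -0.43, -0.93, -0.40 and -0.77. How many genes lay on each side depended on the scaling of the libraries. After rescaling by TMM 662 genes were higher and 687 lower (6.08% and 6.31% of 10892), with a median of -0.55, and a voom fit on the recovered reads called 753 higher and 572 lower (7.11% and 5.4%), with a median of -0.28. Groups of genes are therefore set beside the median of all genes. In 404 genes the polysome libraries all lay above the cytoplasm libraries (3.82%), and in 1588 they all lay below (15%). The polysome library was the higher one in 5 of 5 pools for 730 genes (6.89%) and the lower one in 5 of 5 for 3447 (32.6%). Across the 3680 genes whose normalized count averaged 500 or more, the differences of any pair of pools correlated with a Pearson r of 0.554 to 0.7501. This r is across genes, which are not independent replicates, and the pools share the assay.

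**Figure D1:**
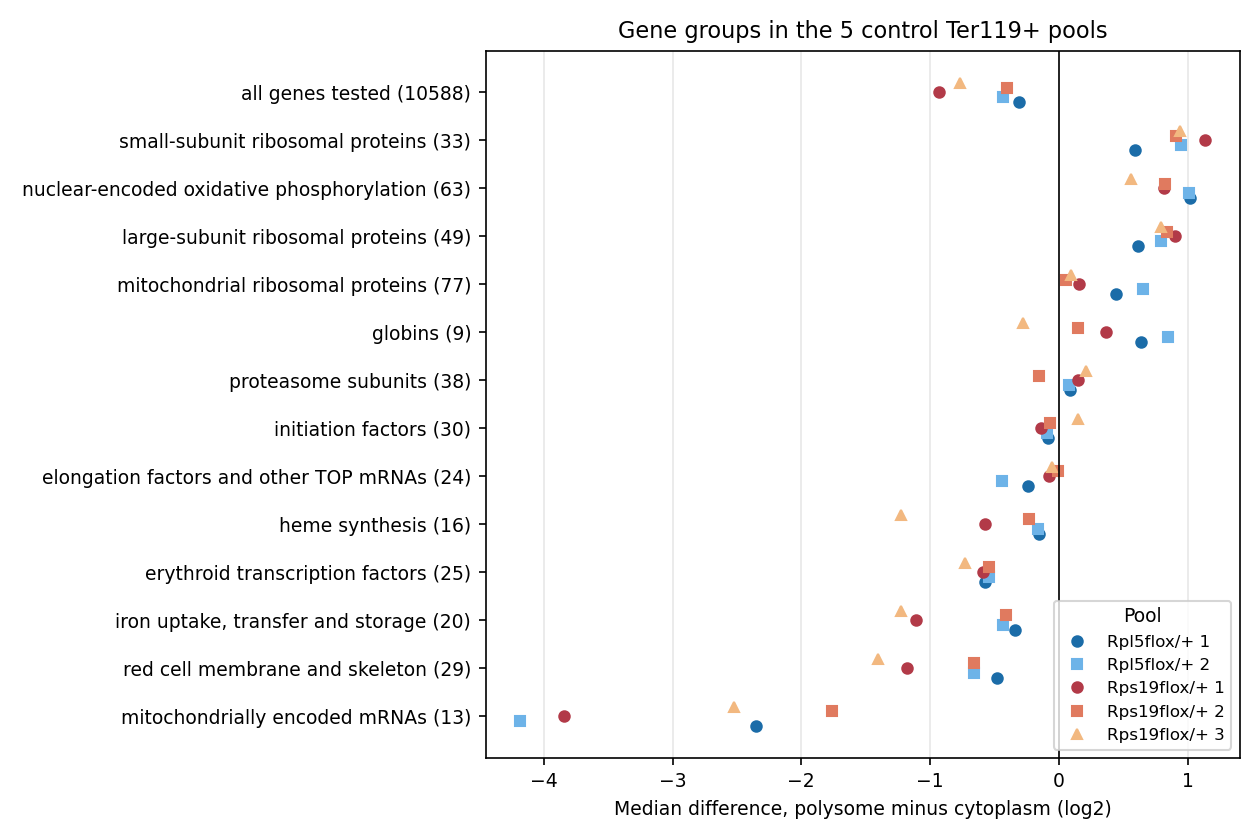
Median difference between polysome and cytoplasm (log2, x axis) of 13 gene groups and of all genes tested (y axis, number of genes in brackets) in each of the 5 control Ter119+ pools, 1 point per pool. Both ribosomal protein groups and the nuclear-encoded respiratory chain lie to the right of all genes in every pool, and the mitochondrially encoded mRNAs lie far to the left. On the share of reads the ribosomal protein sums were lower on polysomes in the Rpl5flox/+ pools.

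The messages of the ribosomal proteins themselves were prominent on the polysomes of these cells. Many ribosomal protein mRNAs begin with a C followed by a run of pyrimidines, the 5′ terminal oligopyrimidine or TOP start, through which their translation follows growth signals. Bases -5 to +20 around the annotated transcript start are shown for 4 messages with a large shift and such a start, and for 4 messages of the same translation machinery with a smaller or opposite shift. They are from the RefSeq promoter table of GRCm38.p6, 5′ to 3′ on the gene's strand, and capitals mark the unbroken run of C and T from the start onward, where it is 5 bases or longer. The run of Eef1a1 begins with T and does not count as a TOP-type start here. The messages were picked by shift, the first 4 also by start, so they cannot show whether start and shift go together. A message without capitals lacks such a run at the annotated start only, and these cells may use another start.
Rpl38, chr11:114668575-114668599, plus strand: tcgttCTTTCCCCgttctcttcggt
Rplp2, chr7:141447646-141447670, plus strand: tcttcCTTTCgccgccggacgccgc
Rps21, chr2:180257374-180257398, plus strand: ccgccCTCCTgcccaatagtgctgc
Fau, chr19:6057942-6057966, plus strand: cacttCTTCCTCTTTCTTgactcca
Rps19, chr7:24884587-24884611, plus strand: cgcgagactcgacgcccgacttgtg
Rpl4, chr9:64173382-64173406, plus strand: tgtgggagcagccgggtagagagga
Eef1a1, chr9:78481705-78481729, minus strand: ccctcTTCCCgagggtgggggagaa
Eef2, chr10:81176626-81176650, plus strand: cgggcgttgacgtcagcggtctctt

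A TOP-type start was searched for as a C at the annotated start and then at least 4 bases that are each C or T, on the gene's strand. It was found in 195 of 8520 tested genes with a sequence (2.29%). Among small-subunit ribosomal proteins it was found in 7 of 25 (28%), and among large-subunit proteins in 6 of 36 (16.7%). The annotated starts are those of the table and can lie some bases from the starts these cells use. Among the listed elongation factors and other known TOP mRNAs it was found in only 4 of 18 (22.2%). A start that was not found therefore does not show that a message lacks one. The median difference was -0.49 for genes with such a start and -0.66 for genes without. Within the small subunit the medians were 0.96 with and 0.78 without it, and within the large subunit 0.64 with and 0.82 without it. The order of with and without was thus opposite in the subunits. Since the split depends on the annotated start, it cannot decide whether a TOP start and the shift go together.

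Of 33 small-subunit ribosomal proteins 26 were higher on polysomes and 1 was lower, Rps2 (78.8% higher against 4.81% of all genes). Of 49 large-subunit ribosomal proteins 31 were higher and 3 lower (63.3% higher). After TMM rescaling 29 and 40 were higher and 0 and 1 lower. The group medians were 0.92 and 0.78, which is 1.58 and 1.44 above the median of all genes. Above that median stood 33 of 33 and 46 of 49 members. Small-subunit medians by pool were 0.59, 0.95, 1.14, 0.91 and 0.94, and large-subunit medians were 0.62, 0.79, 0.90, 0.84 and 0.79. On these medians Rpl5flox/+ pool 2, with least Lars2 on its polysomes, was within the range of the others. The distances of the group medians to the median of all genes were 1.81 and 1.65 after TMM rescaling and 1.53 and 1.39 with voom. As a share of all reads without Lars2, where globin weighs most, the picture split by line. The small-subunit sum on polysomes was 0.905 and 0.879 times that in cytoplasm in the Rpl5flox/+ pools and 1.69, 1.60 and 1.95 times in the Rps19flox/+ pools. For the large subunit these ratios were 0.975, 0.904, 1.95, 1.67 and 2.20. Both ratios were lowest in Rpl5flox/+ pool 2, with least Lars2 on its polysomes, and highest in Rps19flox/+ pool 3, with most. The part of Lars2-rich RNA in these values was not tested.

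The ribosomal protein with the largest shift was Rpl38, a small protein of the large subunit. Its normalized counts on polysomes were 18622, 29195, 61218, 28890 and 94263, against 5084, 5978, 6220, 6447 and 7777 in cytoplasm. The lowest polysome library lay above the highest cytoplasm library, and the difference was 2.64 ± 0.25 (6.24-fold; limma, adjusted p = 0.000291). Rplp2, part of the acidic stalk that recruits elongation factors, differed by 2.42 ± 0.24 (adjusted p = 0.000322 in limma). Rps21 had 15866, 17608, 44830, 32009 and 49998 on polysomes and 5311, 6261, 6405, 6768 and 7633 in cytoplasm, again without overlap, a difference of 2.16 ± 0.21. Fau, which encodes RPS30 fused to a ubiquitin-like protein, Rps28 and Rps15 were higher by 1.78 ± 0.18, 1.85 ± 0.20 and 1.45 ± 0.15. Rpl37a, Rpl37 and Rpl41 were higher by 1.99 ± 0.21, 1.93 ± 0.19 and 1.60 ± 0.27.

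Of the genes floxed in this study, Rps19, a protein of the small subunit head that is mutated in Diamond-Blackfan anaemia, had 15741, 22626, 32086, 27674 and 34246 on polysomes against 11176, 10219, 13048, 13099 and 15378 in cytoplasm. The difference was 1.03 ± 0.16 (limma, adjusted p = 0.00167), with the smallest value in Rpl5flox/+ pool 1. Rpl5, which joins 5S ribosomal RNA to the large subunit, had 110, 226, 321, 306 and 639 on polysomes against 295, 351, 341, 359 and 415 in cytoplasm. It was higher on polysomes in 1 of 5 pools and did not pass the test (-0.32 ± 0.35, adjusted p = 0.50 in limma). Rpl5 shares its position with Dipk1a, and reads of the genes cannot be told apart here.

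The difference was above 0 in 31 of 33 small-subunit and 42 of 49 large-subunit ribosomal proteins. Those that passed the test as lower were Rpl10, Rplp0, Rpl4 and Rps2. Rpl4, a core protein of the exit tunnel, had 14768, 10092, 11864, 14487 and 11170 on polysomes and 23085, 20925, 24557, 27848 and 22953 in cytoplasm. All cytoplasm libraries lay above all polysome libraries, and the difference was -0.94 ± 0.14 (limma, adjusted p = 0.00152). Rpl10, among the last proteins to join the large subunit, was lower at -2.01 ± 0.47, and Rplp0, the base of the stalk that holds Rplp2, at -0.95 ± 0.19. Rps2 was lower at -0.58 ± 0.18. After TMM rescaling Rpl10, Rplp0 and Rps2 no longer passed the test (limma, adjusted p = 0.0623, 0.0798 and 0.408), and Rps2 did not pass without any 1 pool (adjusted p of 0.0626 to 0.0931).

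Nuclear-encoded mRNAs of the respiratory chain were also mostly higher on polysomes. Its complexes carry electrons to oxygen and make ATP in the inner mitochondrial membrane, and most of their small accessory subunits come from the nucleus. Of the 77 genes listed 63 could be analysed here, without 14 subunits of ATP synthase. Of these 63 members 39 were higher on polysomes and 3 lower (61.9% and 4.76%), with a median of 0.85 and pool medians of 1.02, 1.01, 0.82, 0.83 and 0.56. After TMM rescaling 44 were higher and none lower. Its share of the reads without Lars2 was also higher on polysomes in every pool, 1.39, 1.21, 1.83, 1.67 and 2.11 times that in cytoplasm. Ndufa2, an accessory subunit of complex I, had 4568, 6662, 11691, 6439 and 11651 on polysomes against 1450, 1770, 1524, 1625 and 1849 in cytoplasm. The groups did not overlap, and the difference was 2.22 ± 0.20 (4.66-fold; limma, adjusted p = 0.000291). Ndufb7 of the same complex differed by 2.17 ± 0.20. Uqcr11 and Uqcrh, small subunits of complex III, differed by 2.12 ± 0.15 and 2.03 ± 0.16. The lower members were large catalytic or core subunits: Ndufs1 of complex I at -0.73 ± 0.19, Uqcrc2 of complex III at -0.62 ± 0.19 and Sdha of complex II at -0.53 ± 0.17. None of the lower members passed after TMM rescaling (limma, adjusted p = 0.164, 0.318 and 0.372), and each also lost its call without Rpl5flox/+ pool 2 or without Rps19flox/+ pool 2 (adjusted p of 0.0593 to 0.108).

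Mitochondrial ribosomal proteins, made in the cytosol for the ribosomes inside mitochondria, showed a smaller shift of the same sign. Of 77 members 20 were higher and 1 lower (26% higher), with a median of 0.23, and after TMM rescaling 25 and 0. Mrpl12, which also binds the mitochondrial RNA polymerase, had 877, 1280, 2139, 1575 and 3009 on polysomes against 536, 515, 671, 649 and 1022 in cytoplasm. These overlapped between pools but not within any, and differed by 1.29 ± 0.21 (limma, adjusted p = 0.00198). Mrpl52, Mrps21 and Mrpl28 were higher by 1.38 ± 0.24, 1.16 ± 0.18 and 1.09 ± 0.19. Mrpl3 was the lower member at -2.32 ± 0.75, and its call was lost after TMM rescaling (limma, adjusted p = 0.156) and without any 1 of the Rps19flox/+ pools (adjusted p of 0.0679 to 0.117).

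The remaining subunits of these complexes, encoded in mitochondrial DNA and translated on mitochondrial ribosomes, were much poorer on polysomes than in cytoplasm. Of 13 mitochondrially encoded mRNAs 12 were lower and 1 was higher. The median was -3.20, with pool medians of -2.35, -4.18, -3.84, -1.77 and -2.53. The summed share of reads without Lars2 went from 1.24, 1.26, 1.32, 1.45 and 1.30% in cytoplasm to 0.339, 0.0637, 0.141, 0.459 and 0.418% on polysomes. mt-Nd2, a complex I subunit, had 494, 91, 197, 915 and 462 on polysomes against 6455, 6997, 11615, 6263 and 9327 in cytoplasm, a difference of -4.51 ± 0.41 (limma, adjusted p = 0.000291). mt-Nd4l had no read on any polysome and 1173, 1244, 2708, 624 and 617 in cytoplasm. Its cytoplasm mean of 1273 was 86 times the mean level that 3 reads per polysome library would give, 14.8. That level ranged from 8.42 to 29.5 between libraries, so 86 is a ratio of means and not a bound for each pool. mt-Nd1 and mt-Nd5 were lower at -3.53 ± 0.44 and -3.61 ± 0.44, and mt-Co1 and mt-Cytb, of complexes IV and III, at -2.43 ± 0.33 and -2.16 ± 0.32. mt-Co3 had the smallest decrease, -1.34 ± 0.43, and lost its call after TMM rescaling (limma, adjusted p = 0.151) and without any 1 pool other than Rps19flox/+ pool 3 (adjusted p of 0.0514 to 0.121). The higher gene was mt-Nd6, the one protein gene on the other DNA strand, with 455, 104, 551, 177 and 1121 on polysomes and 70.8, 87, 168, 80.6 and 136 in cytoplasm (1.65 ± 0.46, adjusted p = 0.0255 in limma). Without Rpl5flox/+ pool 1, Rps19flox/+ pool 1 or Rps19flox/+ pool 3 its adjusted p was 0.0825, 0.0595 and 0.0615. Whether reads were counted by strand is not stated in the labels, and mitochondrial transcripts overlap one another, so single values of these genes are uncertain.

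**Figure D2:**
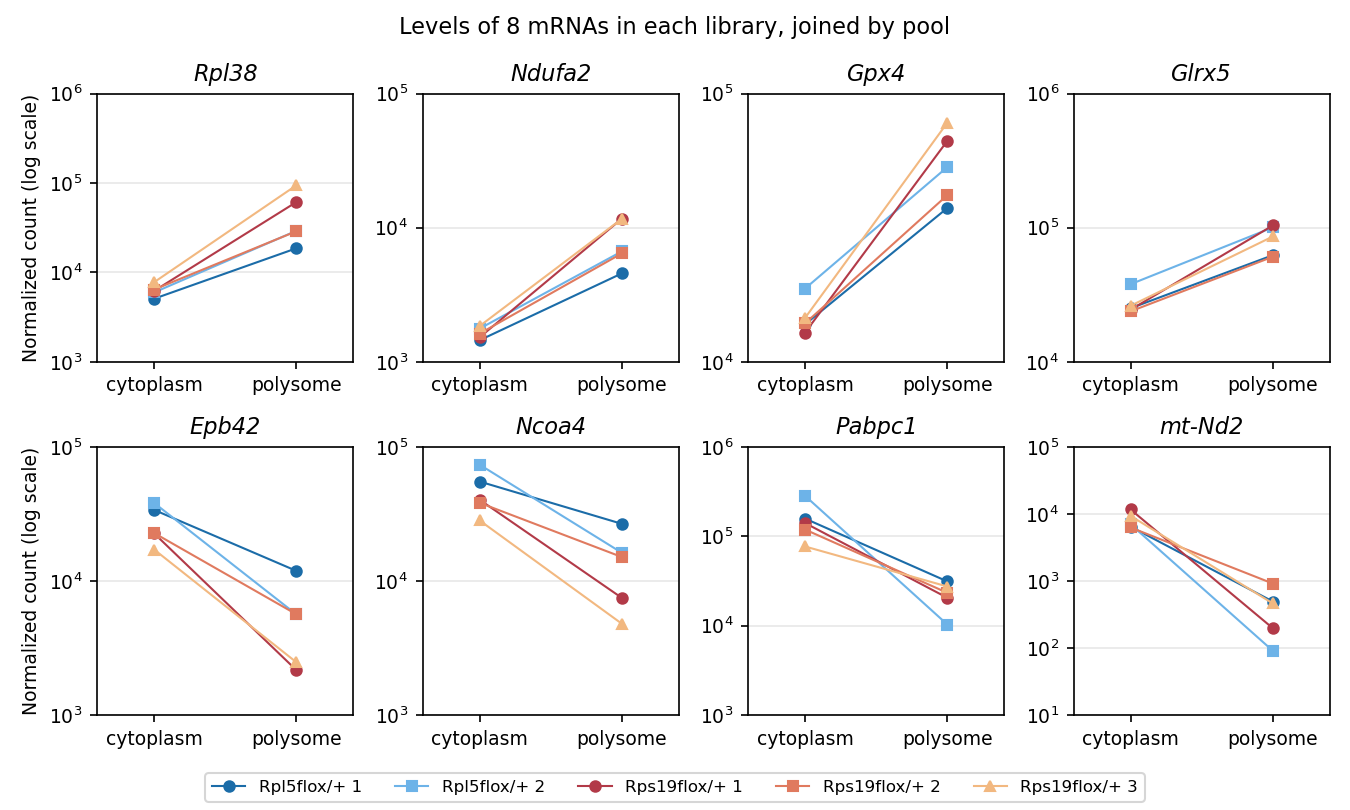
Normalized counts (y axis, log scale, ranges differ between panels) of 8 mRNAs in cytoplasm and polysome libraries (x axis), 1 line per pool. Rpl38, Ndufa2, Gpx4 and Glrx5 go up in all 5 pools, and Epb42, Ncoa4, Pabpc1 and mt-Nd2 go down in all 5.

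Globin was the bulk of what these cells had on their ribosomes. The 9 globin genes in the table made up 73.4, 82.3, 71.2, 63.6 and 64.6% of polysome reads without Lars2, against 57.9, 63.6, 55.6, 54.9 and 58.0% in cytoplasm. This share was higher on polysomes in all 5 pools, by 1.27, 1.29, 1.28, 1.16 and 1.12 times. With Lars2 reads kept in the total it was higher in 4 pools, and in Rps19flox/+ pool 3 it was 53.4% on polysomes against 57.5% in cytoplasm. Per gene, on normalized counts, 1 of 9 members passed the test (11.1%), as higher. After TMM rescaling 1 was higher, with voom 4 and with a minimum mean of 500 3, and none lower. Hba-a1, adult alpha globin, was higher in 5 of 5 pools at 1.21 ± 0.88 (adjusted p = 0.318 in limma). The adult beta globins Hbb-bs and Hbb-bt were higher in 2 and 3 of the pools, at 0.08 ± 0.93 and 0.21 ± 0.70. Hbb-y, the embryonic beta-like globin of the first wave of red cells, passed at 0.64 ± 0.20 (adjusted p = 0.040 in limma), but its adjusted p was 0.0714, 0.124 and 0.146 without Rpl5flox/+ pool 1, Rps19flox/+ pool 1 and Rps19flox/+ pool 2. Near-identical globin copies can share reads, so the split between genes is uncertain.

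The messages for making heme did not move as 1 group. Of 16 members 1 was higher and 5 lower (6.25% and 31.25%, against 4.81% and 21.9% of all genes). The median of -0.57 lay near that of all genes, and after TMM rescaling 1 was higher and 2 lower. Alas2, which starts heme synthesis in red cells and carries an iron-responsive element, had 264085, 429295, 228794, 175619 and 95463 on polysomes against 292691, 407037, 189106, 191094 and 192378 in cytoplasm. The fractions overlapped and did not differ by the test (-0.19 ± 0.26, adjusted p = 0.612 in limma), and Alas2 overlaps Apex2. Alad, the next enzyme, was higher at 0.81 ± 0.20 in 5 of 5 pools, with an adjusted p of 0.0687 in limma without Rps19flox/+ pool 1. Cpox, a later enzyme, was lower in 5 of 5 pools at -1.54 ± 0.18 (limma, adjusted p = 0.00044). Abcb10, a mitochondrial transporter of the pathway, was lower at -1.19 ± 0.20. Fech, which puts iron into heme, was lower at -1.14 ± 0.22, without a call after TMM rescaling (limma, adjusted p = 0.0623).

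For iron uptake, transfer and storage 11 of 20 members were lower and 1 was higher (55% and 5%, against 21.9% and 4.81% of all genes). The median was -0.81. After TMM rescaling 1 was lower and 1 higher, and with voom 2 and 1, so the count of lower members depended on the scaling. Glrx5, which hands on iron-sulfur clusters in mitochondria, was the higher one, with 62390, 100498, 103930, 60789 and 86004 on polysomes against 25112, 37925, 24487, 23807 and 26193 in cytoplasm. The groups did not overlap, at 1.57 ± 0.18 (2.98-fold; limma, adjusted p = 0.000393). Ncoa4, the receptor that takes ferritin to lysosomes, had 26641, 16209, 7474, 15077 and 4798 on polysomes and 55055, 73526, 40290, 38226 and 28240 in cytoplasm. All cytoplasm libraries lay above all polysome libraries, and the difference was -1.91 ± 0.23 (limma, adjusted p = 0.000556). Slc25a37, mitoferrin-1, was lower at -1.43 ± 0.30, and Tfrc, the transferrin receptor, at -0.87 ± 0.23. Fth1, ferritin heavy chain, was lower at -0.99 ± 0.28, and Ftl1, its light chain, did not pass at -0.23 ± 0.23. After TMM rescaling Slc25a37, Tfrc and Fth1 did not pass either (limma, adjusted p = 0.0746, 0.144 and 0.183). Tfrc and Fth1 also lost their calls without Rps19flox/+ pool 1 (adjusted p = 0.0853 and 0.0985 in limma), Tfrc without Rpl5flox/+ pool 2 (0.0677) and Fth1 without Rps19flox/+ pool 3 (0.0601). Of 7 mRNAs with a 5′ iron-responsive element 3 were lower (42.9%), and after TMM rescaling or with voom none passed.

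Messages of the red cell membrane and its skeleton, the spectrin network and the proteins that anchor it, were mostly lower on polysomes. Of 29 members 20 were lower and none higher (69.0% lower against 21.9% of all genes), with a median of -0.82 and pool medians of -0.48, -0.66, -1.18, -0.66 and -1.40. After TMM rescaling 10 were lower and 1 was higher, and the median lay 0.05 above that of all genes. The summed share of reads without Lars2 on polysomes was 0.461, 0.357, 0.355, 0.536 and 0.406 times that in cytoplasm. Epb42, the protein that ties band 3 to ankyrin, had 11883, 5630, 2164, 5645 and 2478 on polysomes and 33831, 38126, 22615, 22752 and 17151 in cytoplasm. No polysome library reached the lowest cytoplasm library, and the difference was -2.49 ± 0.24 (limma, adjusted p = 0.000316). Rhag, of the Rh complex, was lower at -1.49 ± 0.21, and Tmod1, which caps short actin filaments, at -1.32 ± 0.19. Slc4a1, band 3 itself, was lower at -1.17 ± 0.27 but not after TMM rescaling (limma, adjusted p = 0.160) or without Rps19flox/+ pool 1 (0.0609).

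Among erythroid transcription factors some were lower and none higher. Of 25 members 11 were lower and none higher (44% lower, against 21.9% of all genes), with a median of -0.74. After TMM rescaling 6 were lower. Klf3, a repressor that acts against Klf1, had 7248, 3904, 1608, 4121 and 1426 on polysomes against 16276, 14167, 9844, 11687 and 7445 in cytoplasm (-1.90 ± 0.21; limma, adjusted p = 0.000393). The highest polysome value lay just under the lowest cytoplasm value. Zfpm1, the partner of Gata1 also named Fog1, was lower at -1.37 ± 0.17, Ikzf1 at -1.32 ± 0.20 and Tal1 at -1.11 ± 0.19. Gata1 had 10612, 14250, 7154, 7697 and 8397 on polysomes against 10688, 12368, 9240, 9648 and 11061 in cytoplasm, and did not pass (-0.18 ± 0.15, adjusted p = 0.383 in limma). Klf1 was lower at -0.61 ± 0.18 in 4 of 5 pools, without a call after TMM rescaling (limma, adjusted p = 0.364) or without any 1 of the Rps19flox/+ pools (0.0861 to 0.110). Epor, the erythropoietin receptor, did not pass at 0.05 ± 0.18.

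Messages for the loss of organelles and for remodelling of the proteome were divided. Of 29 genes of mitophagy and autophagy 9 were lower and none higher (31% lower, against 21.9% of all genes), with a median 0.13 above all genes, and after TMM rescaling 4 were lower and 1 was higher. Bnip3l, the receptor for removal of mitochondria from reticulocytes, had 23612, 22589, 6475, 13631 and 4582 on polysomes against 31716, 56738, 27144, 25280 and 17248 in cytoplasm (-1.32 ± 0.23; limma, adjusted p = 0.00295). It was lower within every pool, although the groups overlapped. Ulk1 and Wipi1, which act early in autophagy, were lower at -1.60 ± 0.25 and -1.55 ± 0.22. Of 20 genes of the ubiquitin system of late red cells 12 were lower (60%) and none higher, and 6 were lower after TMM rescaling. Trim58, a ubiquitin ligase of enucleation, was lower at -1.77 ± 0.20, Marchf8 at -1.37 ± 0.23 and Rnf123 at -1.11 ± 0.16. Of 38 proteasome subunits 10 were higher and 6 lower (26.3% and 15.8%, against 4.81% and 21.9% of all genes). Their median of 0.07 lay 0.73 above all genes, and 34 of 38 members stood above the median of all genes. After TMM rescaling 11 were higher and 0 lower. Pomp, which helps to build the proteasome core, had 1989, 2485, 3365, 2243 and 4749 on polysomes and 906, 885, 1185, 1125 and 1400 in cytoplasm, without overlap (1.37 ± 0.18; limma, adjusted p = 0.00081). Psmd13, Psmb4 and Psmb6 were higher by 1.03 ± 0.22, 0.88 ± 0.18 and 0.81 ± 0.17.

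Translation factors outside the ribosome had members on both sides, with medians above that of all genes. Elongation factors and other known TOP mRNAs had 4 of 24 members higher and 7 lower (16.7% and 29.2%). Their median of -0.09 lay 0.57 above all genes, and after TMM rescaling 5 were higher and 2 lower. The message with the largest drop in this group was Pabpc1, the poly(A)-binding protein, which represses its own mRNA through an A-rich 5′ leader. It had 31229, 10300, 20506, 23296 and 27403 on polysomes against 157392, 282628, 140275, 118746 and 76799 in cytoplasm. The highest polysome library was less than the lowest cytoplasm library, and the difference was -2.74 ± 0.37 (limma, adjusted p = 0.000899). Ybx1, an mRNA-packaging protein, was lower at -1.20 ± 0.20, Eef2 at -1.004 ± 0.18 and Eef1a1, which brings aminoacyl-tRNA to the ribosome, at -0.77 ± 0.17. Eef2 and Eef1a1 did not pass after TMM rescaling (limma, adjusted p = 0.0518 and 0.153). Eef1d, an exchange factor for Eef1a1, and Eif3k, a subunit of eIF3, were higher by 1.02 ± 0.21 and 0.89 ± 0.16.

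Of 30 initiation factors 2 were higher and 6 lower (6.67% and 20%, against 4.81% and 21.9% of all genes). Their median lay 0.63 above all genes, and after TMM rescaling 5 were higher and 1 lower. Eif1, which guards start codon choice and has its own start in poor context, was higher in 5 of 5 pools at 0.95 ± 0.17 (limma, adjusted p = 0.00306). Eif2s1, the subunit of eIF2 that stress kinases phosphorylate, was lower at -1.31 ± 0.26, without a call in the voom fit (adjusted p = 0.0677 in limma). Of 21 genes that restrain translation or start mRNA decay 9 were lower (42.9%) and none higher. Their median was -0.81, and 5 were lower after TMM rescaling. Ybx3, a cold-shock protein that packages mRNA, had 21033, 13952, 5031, 11719 and 6834 on polysomes against 40741, 61185, 31587, 33932 and 34768 in cytoplasm (-1.92 ± 0.23; limma, adjusted p = 0.000547). No polysome library overlapped the cytoplasm. Eif4ebp2, Lsm14a and Eif2ak1, the heme-regulated kinase of eIF2, were lower at -1.32 ± 0.19, -1.27 ± 0.18 and -1.05 ± 0.17. Among 26 mRNAs with upstream open reading frames or of the stress response that eIF2 phosphorylation controls, 2 were higher (7.69%) and 8 lower (30.8%). Of all genes 4.81% were higher and 21.9% lower. The median of the 26 was -0.06, which is 0.60 above all genes, and 17 of 26 stood above the median of all genes. After TMM rescaling 5 were higher and 2 lower. Atf4, the model of such control, did not pass at 0.25 ± 0.16, higher in 4 of 5 pools. Azin1 and Oaz1, which act against each other in polyamine control, went opposite ways, at -1.59 ± 0.20 (limma, adjusted p = 0.00064) and 0.91 ± 0.16 (adjusted p = 0.00307).

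Of 38 ribosome biogenesis genes 4 were higher and 4 lower (10.5% each, against 4.81% and 21.9% of all genes), or 6 and 1 after TMM rescaling. Their median of -0.27 lay 0.39 above all genes. The proteins of the H/ACA particle, which guides pseudouridylation, were themselves divided: Nhp2 was higher at 1.21 ± 0.23 and Dkc1, its catalytic subunit, lower at -2.61 ± 0.41. Nop58, of the C/D particle, was lower at -1.90 ± 0.49, without a call after TMM rescaling (limma, adjusted p = 0.0674) or without Rpl5flox/+ pool 2, Rps19flox/+ pool 1 or Rps19flox/+ pool 2 (0.0589 to 0.0638).

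Messages for protection from oxidants, which red cells need beside so much haem iron, had members on both sides. Of 28 antioxidant and selenoprotein genes 7 were higher and 6 lower (25% and 21.4%, against 4.81% and 21.9% of all genes). Their median of 0.10 lay 0.76 above all genes, and 21 of 28 members stood above the median of all genes. After TMM rescaling 8 were higher and 2 lower. Gpx4, the selenoenzyme that repairs lipid peroxides, had 37450, 53227, 66628, 41828 and 77843 on polysomes against 13806, 18764, 12861, 13921 and 14589 in cytoplasm. The groups were well apart, at 1.86 ± 0.19 (3.64-fold; limma, adjusted p = 0.000322). Sod1 was higher by 1.00 ± 0.15. Cat, catalase, was lower at -1.20 ± 0.19. The most abundant members Gpx1 and Prdx2 did not pass, at 0.67 ± 0.33 and 0.54 ± 0.23. Of 30 genes listed as cytosolic chaperones and chaperonin 5 were higher and 2 lower (16.7% and 6.67%), with a median 0.50 above all genes. Among the higher ones were Hspe1, the lid of the mitochondrial chaperonin, at 1.17 ± 0.19 and Pfdn5 of prefoldin at 1.14 ± 0.17. Of 40 genes of the endoplasmic reticulum 3 were higher and 10 lower (7.5% and 25%), close to the 4.81% and 21.9% of all genes. After TMM rescaling 6 were higher and 5 lower. Here Hspa5, the main chaperone of that compartment, was lower at -1.31 ± 0.24 and Stt3b, which attaches glycans, at -1.49 ± 0.21, while Srp9 of the signal recognition particle was higher at 1.07 ± 0.20. Of 20 glycolysis genes 4 were lower and none higher (20% lower, no more than the 21.9% of all genes), among them the red cell pyruvate kinase Pklr at -1.51 ± 0.21 and the glucose transporter Slc2a1 at -1.35 ± 0.27.

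Cell cycle, splicing and chromatin messages had many lower members on the deposited scale, with medians near that of all genes (-0.66). The medians were -0.57 for G1/S and replication, -0.72 for G2/M, -0.57 for splicing factors and -0.91 for chromatin regulators, and after TMM rescaling they lay 0.30, 0.15 and 0.30 above all genes and 0.04 below. Of 23 genes of G1/S and replication 13 were lower (56.5%) and none higher, but 1 was lower after TMM rescaling. Mcm2, of the replicative helicase, and Cdc6, which loads it, were lower at -0.87 ± 0.15 and -0.86 ± 0.16, with adjusted p = 0.0517 and 0.0569 after rescaling (limma). Ccne2, cyclin E2, was lower at -1.79 ± 0.36. Of 25 genes of G2/M and mitosis 14 were lower and 3 higher (56% and 12%), and 5 and 3 after TMM rescaling. Ccnb1, cyclin B1, had 5105, 3094, 1337, 2669 and 944 on polysomes against 10784, 9534, 7028, 8576 and 5953 in cytoplasm, without overlap (-1.88 ± 0.22; limma, adjusted p = 0.000507). Kif20a, a kinesin of cytokinesis, was lower at -2.16 ± 0.23. In contrast Birc5, survivin, had 14543, 15280, 16134, 12901 and 13579 on polysomes against 8084, 8232, 7870, 7740 and 7118 in cytoplasm, also without overlap, at 0.89 ± 0.14 (adjusted p = 0.0016). Cdkn1b, the inhibitor p27, was lower at -1.76 ± 0.27. Of 34 splicing factors 16 were lower (47.1%) and none higher, and after TMM rescaling 5 were lower and 2 higher. Of 25 chromatin regulators 11 were lower (44%) and none higher, and 4 were lower after TMM rescaling. Examples are Srsf1 at -1.17 ± 0.22, Ptbp1 at -1.25 ± 0.21, the acetyltransferase Ep300 at -1.88 ± 0.38 and the histone H4 methyltransferase Kmt5a at -1.44 ± 0.20. The other lists had shares of lower genes near or below the 21.9% of all genes. Of 24 p53 targets 4 were lower, of 19 immediate early and heat shock genes 3 lower and 1 higher, and of 14 D-cyclins and Cdk inhibitors 2 lower. Only 4 of 20 listed aminoacyl-tRNA synthetases could be analysed here, and 1 was lower. Of 13 histones made outside replication 2 were higher, among them H2az2 at 1.14 ± 0.17.

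Across the table, longer genes had lower differences. Genes were ordered by their span in GRCm38.p6, introns included, since transcript lengths were not used here. Of 3651 genes with a mean of at least 500 and a span, the bin of the shortest genes (0.374 to 6.75 kb) had 38.7% higher and 14.6% lower on polysomes, with a median of 0.23. The bin of the longest genes (48.4 to 596.4 kb) had 2.19% higher and 66.9% lower, with a median of -0.85. Genes were split into 5 bins of equal size, and the medians of the bins between were -0.27, -0.54 and -0.77. In this set of 3680 genes 12.6% were higher and 43.5% lower in all. Spearman's rho was -0.48 across the 3651 genes and -0.32 across 10468 genes with no such minimum. The groups above differ in span. The median span was 2.94 and 3.16 kb for the ribosomal proteins of the small and large subunit, 7.51 kb for the respiratory chain, 28.6 kb for the red cell membrane and 77.8 kb for chromatin regulators, against 22.6 kb for all genes. The part of length in the difference of any group was not tested.

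**Figure D3:**
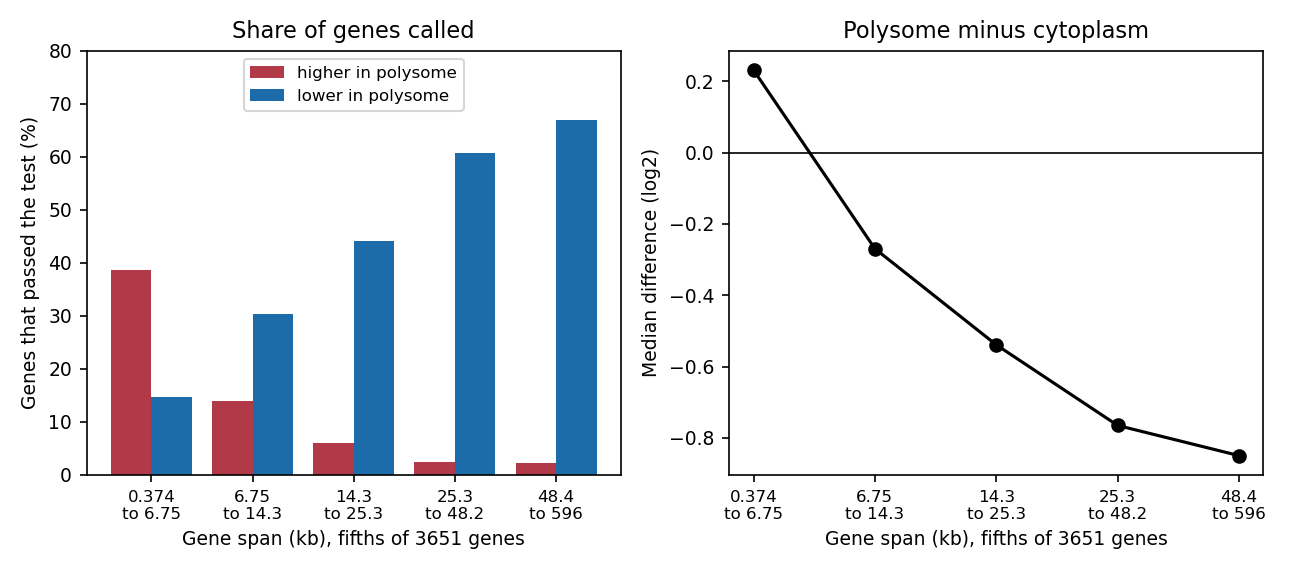
The 3651 genes whose normalized count averaged 500 or more, in 5 bins of equal size by gene span (x axis, kb). The left panel gives the percentage that passed the test as higher or lower on polysomes and the right panel the median difference (log2), which goes from 0.23 in the bin of the shortest genes to -0.85 in that of the longest.

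The genes with the largest rise were mostly replication-dependent histones, whose mature mRNAs end in a stem-loop in place of a poly(A) tail. They took 8 of the 12 largest higher values, among them H2ac10 with 537, 355, 913, 502 and 1750 on polysomes against 13.5, 17.2, 37.4, 22.5 and 10.6 in cytoplasm (4.45 ± 0.50; limma, adjusted p = 0.000393). These values do not overlap. H4c8 differed by 3.56 ± 0.48. Whether histone genes share reads with similar copies was not checked, so values of single histone genes are uncertain. Since these histones had been seen to lead, all 63 genes with such symbols were then listed, and the counts that follow are a description. Of 61 tested 45 were higher and 2 lower (73.8% and 3.28%), with a median of 2.50. The libraries were not alike in this. The median polysome level of the 61 genes was 1050, 106.7, 506, 325.6 and 1888, against 68.3, 55.2, 111.3, 64.2 and 100.8 in cytoplasm. It was lowest in Rpl5flox/+ pool 2 and highest in Rps19flox/+ pool 3, the pools with the lowest and the highest share of Lars2 on polysomes. The libraries were selected for poly(A), and the part of Lars2-rich RNA or of poly(A) selection in the histone values was not tested. Other genes among the 12 largest were Eif4ebp3, with 81.5, 132, 494, 564 and 629 on polysomes and 0, 0, 19, 0 and 0 in cytoplasm, and S100a4, with 153, 94.1, 136, 25.3 and 1190 on polysomes against 4.1 to 11.8 in cytoplasm. Beside the mitochondrial genes the 12 largest lower values included Srp54b (307, 62.8, 0, 14 and 0 on polysomes, 439 to 1005 in cytoplasm) and Taf9 (144, 25.1, 0, 0 and 0, against 236 to 442), low counts at which the depth of the polysome libraries limits the size. Srp54b has near-identical copies, and Taf9 overlaps Ak6.

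**Figure D4:**
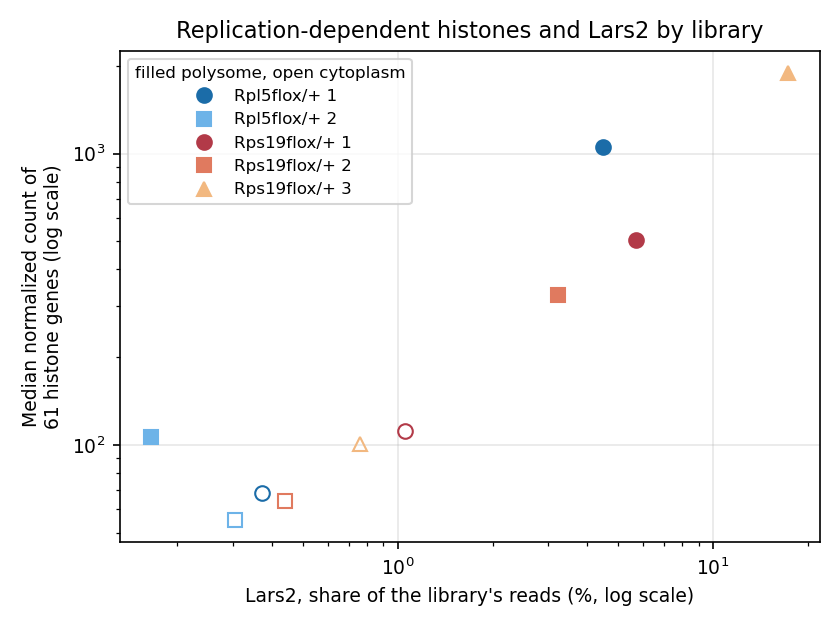
Median normalized count of 61 replication-dependent histone genes (y axis, log scale) against the share of reads from Lars2 (x axis, %, log scale), 1 point per library, filled for polysomes and open for cytoplasm. The polysome library of Rpl5flox/+ pool 2 lies lowest and that of Rps19flox/+ pool 3 highest of the filled points.

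Markers of other liver cells were low beside erythroid markers, and in bulk samples fewer cells of a type and less RNA per cell cannot be told apart. Hepatocyte markers summed to 9763 to 49110 on polysomes and 8883 to 47020 in cytoplasm. Of 23 tested 6 were higher on polysomes (26.1%, against 4.81% of all genes) and none lower. Their summed ratio was 0.790, 0.786, 1.57, 1.10 and 2.78 by pool, highest in Rps19flox/+ pool 3, and without that pool 2 were higher and 1 lower. Of 18 granulocyte and monocyte markers 3 were higher and 1 lower (16.7% and 5.56%). S100a8, S100a9 and Camp, genes of neutrophils, were higher by 1.10 ± 0.16, 1.28 ± 0.18 and 1.25 ± 0.17, in 5 of 5 pools. Of the macrophage markers 3 of 18 were lower and of the megakaryocyte markers 3 of 13 (16.7% and 23.1%, against 21.9% of all genes). Of the endothelial and stromal markers 1 of 14 was lower (7.14%). None of these markers was higher, and after TMM rescaling none passed. None of 4 mast cell or 5 B-lymphoid markers tested passed, and of the mast cell markers Ms4a2 and Tpsb2 were at 0 on all polysomes. Of 16 stem and progenitor genes 4 were lower (25%), and none after TMM rescaling. The part of these cells in the differences above was not tested.

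The floxed line made little measurable difference by gene. The difference of differences, Rpl5flox/+ minus Rps19flox/+, passed for 1 of 10588 genes in limma (0.00944%), while 608 had an unadjusted p below the threshold. The gene was Gm49342, with 824, 1117, 0, 0 and 0 on polysomes and 2782, 4034, 2091, 2117 and 1855 in cytoplasm, a difference of 6.28 (adjusted p = 0.0318). With any pool left out its adjusted p was 0.102 to 1.00. With 2 pools against 3 a p that misses the threshold does not show that the lines were alike. Mitochondrial ribosomal proteins, for example, had pool medians of 0.45 and 0.65 in Rpl5flox/+ and 0.16, 0.06 and 0.10 in Rps19flox/+ cells.

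Ribosomal protein and proteasome mRNAs that differed between the cell types mostly had the smaller value in Ter119+ cells and the larger one in Kit+ stem and progenitor cells. In Kit+ cells alone 822 of 10689 genes were higher on polysomes and 4002 lower (7.69% and 37.4%). The difference between the cell types passed for 246 of 10872 genes in limma (2.26%), 113 with a higher value in Ter119+ cells (1.04%) and 133 with a lower one (1.22%). Of 33 small-subunit ribosomal proteins none were higher and 10 lower in Ter119+ cells, of 49 large-subunit proteins 1 and 11, of 38 proteasome subunits 0 and 8, and of 63 respiratory chain genes 2 and 6. The Kit+ pools included 3 with under 2 M polysome reads. Without these the counts were 0 and 4, 0 and 5, 0 and 6, and 1 and 5, out of 155 genes called, and 96 of those were among the 246. Without Rps19flox/+ pool 2 of the Ter119+ cells 51 genes were called, and the counts were 0 and 3, 0 and 6, 0 and 2, and 0 and 0. Without Rpl5flox/+ pool 1 of the Ter119+ cells 69 genes were called, with counts of 0 and 4, 0 and 6, 0 and 5, and 0 and 2. Without their Rpl5flox/+ pool 2 86 were called, with counts of 0 and 4, 1 and 7, 0 and 6, and 0 and 2. Without Rpl5flox/+ pool 1, 2 or 3 of the Kit+ cells 133, 154 and 152 were called.

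Rpl38 differed by 4.27 ± 0.09 in Kit+ and 2.64 ± 0.25 in Ter119+ cells, a gap of -1.62 ± 0.27 (limma, adjusted p = 0.00951), and Rplp2 by 3.86 ± 0.08 and 2.42 ± 0.24 (gap -1.44 ± 0.25). Rpsa, the laminin receptor protein of the small subunit, and Rps4x passed in Kit+ cells at 1.70 ± 0.11 and 1.35 ± 0.08 but not in Ter119+ cells at 0.23 ± 0.18 and 0.35 ± 0.15, with gaps of -1.47 ± 0.17 and -0.999 ± 0.15. Pabpc4, a relative of Pabpc1, was at 2.28 ± 0.12 in Kit+ and -0.39 ± 0.24 in Ter119+ cells, a gap of -2.67 ± 0.28 (limma, adjusted p = 0.000505). Eef1d had a gap of -1.81 ± 0.23, Eif2b4, of the exchange factor of eIF2, -2.23 ± 0.30 and Hsp90aa1 -2.34 ± 0.45. The proteasome members Psmb5 and Psmc5 had gaps of -1.59 ± 0.22 and -1.64 ± 0.25. The named genes that were lower on polysomes in both cell types had the smaller drop in Ter119+ cells, beside a median gap of 0.54 over all genes tested, to which Eef1a1 (0.66) and Rpl4 (0.78) lay near. Ybx1 was at -3.13 ± 0.19 in Kit+ and -1.20 ± 0.20 in Ter119+ cells, Rpl4 at -1.72 ± 0.10 and -0.94 ± 0.14, Eif4e, the cap-binding protein, at -2.59 ± 0.31 and -0.77 ± 0.19, and Eef1a1 at -1.42 ± 0.10 and -0.77 ± 0.17. Mzt1, which recruits gamma-tubulin complexes, was at -6.69 ± 0.64 and -1.99 ± 0.38. Selenow, a selenoprotein, was lower on polysomes in Kit+ cells at -0.82 ± 0.23 and higher in Ter119+ cells at 0.75 ± 0.22 (gap 1.56 ± 0.35; limma, adjusted p = 0.0319). Without the 3 shallow Kit+ pools 12 of these 16 genes passed, all but Hsp90aa1, Rpl4, Eef1a1 and Selenow.

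**Figure D5:**
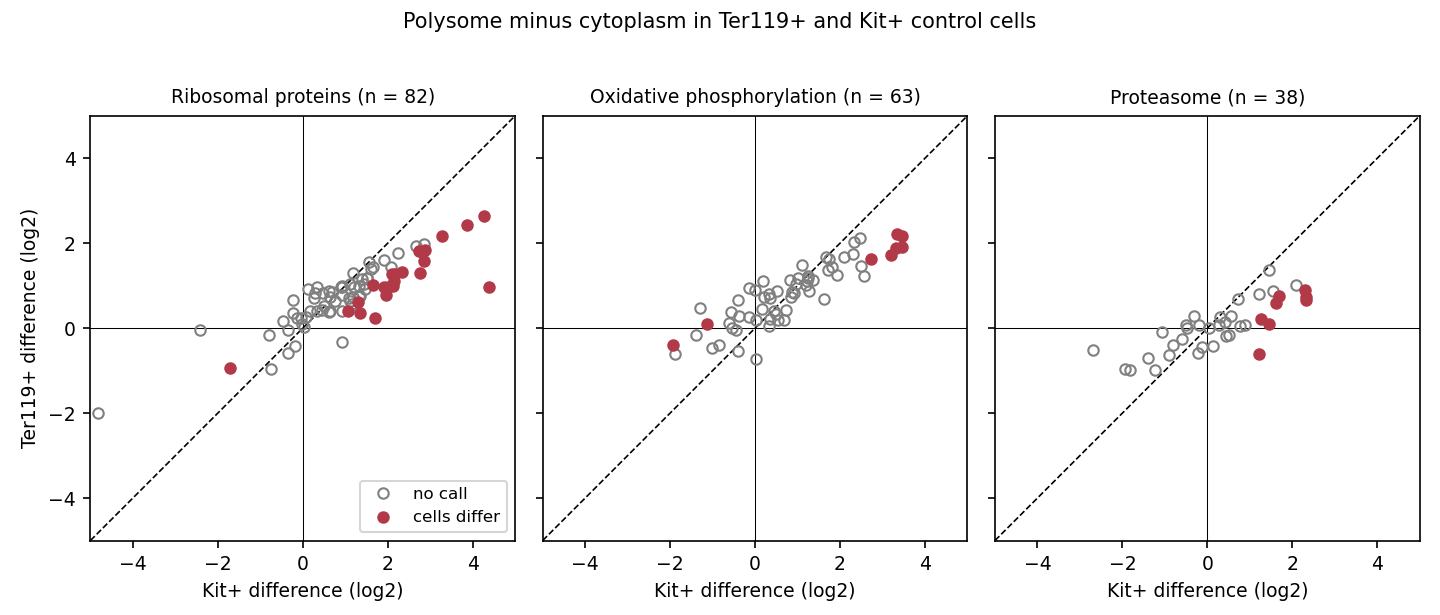
Polysome minus cytoplasm (log2) in Kit+ cells (x axis) and Ter119+ cells (y axis) for ribosomal protein, respiratory chain and proteasome genes, 1 point per gene; filled points passed the test of the difference between the cells, and the dashed line marks equal values. Most filled points on the right lie below the line, such as Rpl38 at 4.27 and 2.64.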

How the data were processed

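The authors deposited 1 log2 table (13449 genes, 45 libraries). Its values have the form of variance-stabilised, size-factor-scaled counts, a step read from the values and not from a header. It was inverted to normalized counts and whole reads (100% of values whole, tolerance 1e-06). The submitters' processing notes name mm10; aligner and counter: not given in the sources used here. Symbols were matched to GRCm38.p6 (13243 of 13449).

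Differences between fractions were tested two-sided by limma (version 3.58.1, R 4.3.3), using lmFit and a trended eBayes on the deposited log2 values, Benjamini-Hochberg adjustment and a threshold of 0.05, for genes whose normalized count averaged 10 or more. The pool was a block, since the batch label ties both fractions to 1 pool; deviations of partners correlated at 0.243 to 0.522, and 4 of 5 polysome libraries correlated best with their own cytoplasm. Line and cell type differences were interactions in the same kind of fit. No label says that the pools are separate litters, so p-values measure the spread between pools. Alternatives were the block, scaling, the filter, log2 of the normalized count plus 1, leaving out pools and lines, and, added after seeing the data, voom, thinning and a minimum of 500. The fit was tested on simulated data. Members, gene lists and named genes (the 12 largest in each direction, the 4 smallest p of each list and a roster, as a subset) were chosen with earlier results of these data known. Genes with near-identical copies, such as Rps27, stayed in the lists and their counts. They are named only with that remark, apart from single histone genes, whose copies were not checked. Python 3.11.15 was used for the rest.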

Additional observations from a re-analysis of the deposited data

Results flagged for a closer look

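In several groups of 5 pools 1 pool stood apart from the others, as chance makes happen in about 1 of 20 groups. Rps19 differed between polysome and cytoplasm by 0.49 in Rpl5flox/+ pool 1 and by 1.08 to 1.30 in the other pools. Rpl4 was at -0.64 in the same pool and at -1.05 to -0.94 in the others. Epor was at -0.73 in Rps19flox/+ pool 3, against 0.11 to 0.35. Cenpf, a kinetochore protein, was at -0.15 in Rps19flox/+ pool 1, against 1.25 to 1.55. The median of the initiation factors was 0.15 in Rps19flox/+ pool 3, against -0.14 to -0.07, and that of the erythroid transcription factors was -0.73 there, against -0.59 to -0.54. The medians of p53 targets (-1.05) and of megakaryocyte markers (-1.68) were lowest in Rps19flox/+ pool 1, and that of granulocyte and monocyte markers (-0.59) in Rps19flox/+ pool 2. The cytoplasm of Rps19flox/+ pool 1 had 123.5 M reads, against 45 to 58.8 M.

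Differences between lines or cell types passed their own test for these genes. Gm49342 differed between the lines by 6.28. Between Ter119+ and Kit+ cells the log2 gap was -2.67 for Pabpc4, -1.81 for Eef1d, -2.23 for Eif2b4, -2.34 for Hsp90aa1, -1.47 for Rpsa, -0.999 for Rps4x, -1.62 for Rpl38, -1.44 for Rplp2, -1.59 for Psmb5 and -1.64 for Psmc5. It was 1.92 for Ybx1, 1.82 for Eif4e, 0.66 for Eef1a1, 0.78 for Rpl4, 4.70 for Mzt1 and 1.56 for Selenow.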

How the results depend on the processing

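The count of genes that differed between polysome and cytoplasm, 2823, was 1349 after TMM rescaling and 1325 with voom. In the 3 Rps19flox/+ pools alone the count was 1182, and in the 2 Rpl5flox/+ pools alone it was 2747. The cause of these changes was not tested. With 1 pool left out it was 1685 to 2324, of which 1657 to 2144 were among the 2823; it was lowest without Rps19flox/+ pool 1 (1685) and also over 1.5 times lower without Rpl5flox/+ pool 2 (1788). Without the pool as a block, that is without the pairing, it was 2130. Of 131 named genes 119 passed, and 84 did so under all alternatives, 104 with any pool left out, 100 after TMM rescaling and 103 with voom; none changed sign with a call. The single gene that differed between the lines became 0 with log2 of the normalized count plus 1, with TMM rescaling, with no filter, with a minimum of 500 and with any pool left out (0 to 0). The count of 246 for the cell types was 373 with no filter, 374 with a minimum of 500, 155 without the shallow Kit+ pools and 51 to 289 with 1 pool left out. After TMM rescaling it was 176, with 27.3% of these higher in Ter119+ cells. With voom it was 279, with 25.1% of these higher, against 45.9% of the 246. Without the block the count was 362. The planned fits with edgeR and DESeq2 were not run, because the deposited unit is log2. The shallow polysome libraries limit genes of low count most.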
